A study of Homo sapiens with 8 samples.

Results

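Matrix metalloproteinases (MMPs) and the tissue inhibitors of metalloproteinases (TIMPs) were followed through total and polysomal RNA of immortalized human cardiac fibroblasts (IHCF). The 8 genes were MMP1, MMP2, MMP3, MMP14 and MMP19 with TIMP1, TIMP2 and TIMP3, out of 59385 gene symbols counted. They were listed by name, with earlier results of these data known. All 8 passed the filter on low counts that left 16228 genes for testing, although MMP3 never exceeded 15 counts in a library. Cells carried a lentiviral short hairpin RNA against EIF4G2 (knockdown) or a scramble hairpin without a target. Both lines had no serum for 6 h or more and then received TGF-beta for 24 h, so every library comes from cytokine-treated cells and none measures the response to it. Each line gave 2 libraries of total RNA and 2 of polysomal RNA, called biological replicates by the labels. The design text mentions triplicates, and 2 libraries per group were analysed here. Separate cultures are not named, and the p-values here thus measure the spread between libraries, which may be technical. The labels name 1 hairpin against EIF4G2 and 1 immortalized line, and off-target effects of that hairpin cannot be told apart from the loss of its target.

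MMPs are zinc-dependent proteases that cut collagens, proteoglycans and other matrix proteins. They are made as inactive proenzymes, most of them secreted, while MMP14 stays anchored in the cell membrane. TIMPs bind the active site of MMPs and block it, and TIMP2 also bridges proMMP2 to MMP14, which activates it at the cell surface. In the heart, fibroblasts make both sides of this system, and the balance of protease and inhibitor sets how fast scar matrix turns over. EIF4G2, also known as DAP5, is a translation scaffold related to EIF4G1 that does not bind the cap-binding protein eIF4E. Polysomes are mRNAs carrying several ribosomes, so the polysomal share of an mRNA is commonly read as a measure of its translation.

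The site that makes an MMP a protease is shared by the 5 enzymes and is absent from the inhibitors, and it is shown here to set the families apart. The coding sequence of each principal transcript in GENCODE release 29 (GRCh38) was translated and searched for the zinc-binding motif of this enzyme class, which was found once in each MMP and in 0 of 3 TIMPs. Each line gives the 33 coding bases of the motif, 5′ to 3′, with the codons of the zinc-holding histidines in capitals.
MMP1: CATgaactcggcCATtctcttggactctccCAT
MMP2: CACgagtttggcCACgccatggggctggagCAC
MMP3: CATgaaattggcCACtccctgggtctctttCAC
MMP14: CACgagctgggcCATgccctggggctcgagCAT
MMP19: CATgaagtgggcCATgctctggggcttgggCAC
The site began at codon 218 in both MMP1 and MMP3, the neighbouring collagenase and stromelysin, at codon 212 in MMP19, at codon 239 in MMP14 and at codon 403 in MMP2. MMP2 and MMP14 shared 27 of 33 bases there, the most of any pair, and MMP1 and MMP2 shared 18, the fewest.

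Because the study concerns translation, the bases around each start codon are shown as well, with the start codon in capitals, 12 transcript bases before it and 6 after.
MMP1: acaaaggccagtATGcacagc
MMP2: gggagcgctacgATGgaggcg
MMP3: aagccagtggaaATGaagagt
MMP14: tggtctcggaccATGtctccc
MMP19: tctggtgggaccATGaactgc
TIMP1: agagaacccaccATGgccccc
TIMP2: ccccggcccgccATGggcgcc
TIMP3: gcagcagcggcaATGacccct
A purine stands at the third base before the start codon in 8 of 8 members, as it does in 86.0% of the 12421 tested genes whose leader could be read. A guanine follows the start codon in MMP2, TIMP1 and TIMP2, and in 53.0% of those genes. The 5′ leaders differ widely in length and base content. MMP1 has 68 bases with 48.5% GC, and MMP3 has 257 bases with 44.4% GC, which are at the 7.10 and 3.55 percentiles of GC among tested genes. TIMP2 (299 bases, 81.6% GC) and TIMP3 (301 bases, 77.7% GC) are at the 93.7 and 85.6 percentiles, against a median of 66.4% GC. MMP3 holds 4 upstream ATG triplets in its leader, TIMP1 holds 3, MMP2 holds 1 and the other members hold 0. Across all tested genes, 46.7% have no upstream ATG. The TIMPs have short coding regions of 624 to 663 bases, while those of the MMPs run from 1410 to 1983. TIMP1 has the shortest transcript of the group at 892 bases (3.08 percentile of tested genes), and TIMP3 has the longest at 4603 with a 3666-base stretch after the stop codon.

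The genes lie on separate chromosomes apart from MMP1 and MMP3. In GRCh38, MMP1 lies at chr11:102789920-102798160 and MMP3 at chr11:102835801-102843803, both on the minus strand. MMP2 lies at chr16:55389700-55506691 (plus), MMP14 at chr14:22836557-22849027 (plus) and MMP19 at chr12:55835433-55842966 (minus). TIMP1 lies at chrX:47582313-47586789 (plus), TIMP2 at chr17:78852977-78925387 (minus) and TIMP3 at chr22:32801701-32863043 (plus). TIMP1 and TIMP3 each sit within a synapsin gene, SYN1 and SYN3, on the opposite strand without shared exon bases, and those genes had at most 31 and 10 counts in a library. The exons of MMP19 share 814 bases with TMEM198B on the opposite strand, a gene with 45 to 196 counts against 3 to 190 for MMP19. The strand setting of the counting is not given in the sources used here, so MMP19 values are uncertain. MMP1 shares 150 exon bases with WTAPP1 (0 to 13 counts) and TIMP2 shares 198 with CEP295NL (0 to 21 counts), both small beside the members' own counts. MMP3 shares 32 exon bases with WTAPP1 on the opposite strand, and its own counts of 0 to 15 lie in the same range as the 0 to 13 of WTAPP1, so MMP3 values are uncertain too.

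Depth ran from 18043714 to 24590030 counts per library. EIF4G2 itself stood at 793.0 and 784.5 CPM (counts scaled to a common library size) in scramble total and at 293.1 and 326.9 CPM in knockdown total libraries, which left 39.3% of its mRNA, and 33% was left in polysomes. Its log2 fold change was −1.35 ± 0.18 (SE) in total RNA (edgeR adjusted p = 0.0504) and −1.60 ± 0.18 in polysomal RNA (edgeR adjusted p = 0.0276). Polysome libraries were less alike than total ones (Pearson's r across genes 0.955 to 0.968 between replicates, against 0.986 to 0.992), and the mitochondrially encoded share of counts was 7.12% in the first scramble polysome library but 14.5 to 17.5% in the other 3. Of 15 fibroblast markers, 13 exceeded 1 CPM in total RNA, with COL1A1 at 3962, THY1 at 229.5 and VIM at 1250, while DCN (0.188) and FAP (0.199) were near 0. PDGFRA (1.57), TCF21 (2.95), POSTN (3.35), LUM (3.55) and DDR2 (4.07) were low. Of 8 endothelial markers, 5 exceeded 1 CPM in total RNA of either hairpin, 4 in scramble and 6 in knockdown polysomes. In total RNA EGFL7 stood at 31.9, TEK at 7.45 and TIE1 at 6.21 CPM, with CDH5 (0.197) and VWF (0.166) near 0. Of 10 cardiomyocyte markers 1 exceeded 1 CPM in total RNA and the heavy chains MYH6 and MYH7 were at 0 counts in all libraries. Of the 10 leukocyte markers, cells that are another source of MMPs, 2 exceeded 1 CPM in scramble total and 0 in knockdown total RNA. Markers of epithelial cells summed to 1166 to 1423 CPM in total and 2237 to 3202 CPM in polysome libraries, nearly all from the keratins KRT8 and KRT18, with CDH1 at 0.0731 CPM. In polysomes that sum was lower in knockdown (2237 to 2269) than in scramble libraries (3130 to 3202). The 8 mural cell markers, of which 4 exceeded 1 CPM in every group, also summed lower after knockdown, 384.5 to 442.6 against 461.7 to 479.4 CPM in total and 78.6 to 94.8 against 107.1 to 143.0 CPM in polysome libraries. The sum of 8 endothelial markers was higher in knockdown (134.3 to 141.6) than in scramble polysomes (116.0 to 132.3 CPM). That of the fibroblast markers was higher in knockdown (7018 to 7149) than in scramble total libraries (6613 to 6799 CPM). At low levels, cardiomyocyte markers summed lower in knockdown (2.70 to 3.06) than in scramble polysomes (5.46 to 7.69 CPM). Leukocyte markers summed lower in knockdown (2.01) than in scramble total libraries (2.39 to 3.24 CPM). The part of these marker differences in the results below was not tested.

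IHCF cells held abundant mRNA for MMP14, MMP1, TIMP1, TIMP3 and TIMP2, less for MMP2, and very little for MMP19 and MMP3. Levels of different genes were compared as CPM of the TMM-scaled library per kilobase of principal transcript. In scramble total RNA, MMP14, the membrane-bound activator of proMMP2, led at 187.0 ± 3.42 CPM per kb (SD, n = 2). The next levels were 173.6 ± 2.64 for TIMP1, 152.1 ± 1.1 for the interstitial collagenase MMP1, 132.1 ± 2.48 for TIMP3 and 126.8 ± 2.02 for TIMP2. The gelatinase MMP2 stood at 51.2 ± 2.37 CPM per kb, MMP19 at 2.47 ± 0.0837 and the stromelysin MMP3 at 0.0896 ± 0.0565. Libraries of neighbours in this order did not overlap, but the order depends on transcript length: over the union of annotated exons, an alternative chosen after the data were seen, TIMP1 moved from place 2 to place 4. In knockdown total RNA MMP1 led at 191.8 ± 17.4 CPM per kb, and its libraries overlapped those of TIMP1 (157.8 ± 39.1), which in turn overlapped those of MMP14 (162.9 ± 7.01).

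The order was different among polysomal RNA. TIMP1 led there at 1320 ± 15.6 CPM per kb in scramble and 1073 ± 82.5 in knockdown libraries. In scramble polysomes MMP1 (226.2 ± 15.3) and TIMP3 (223.7 ± 62.7) followed and overlapped each other, as did TIMP2 (63.6 ± 1.63) and MMP2 (60.5 ± 6.61). MMP14, first in scramble total RNA, was at place 6 of 8 in polysomes of both hairpins, with 20.7 ± 2.48 CPM per kb in scramble and 14.6 ± 0.376 in knockdown libraries.

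**Figure D1:**
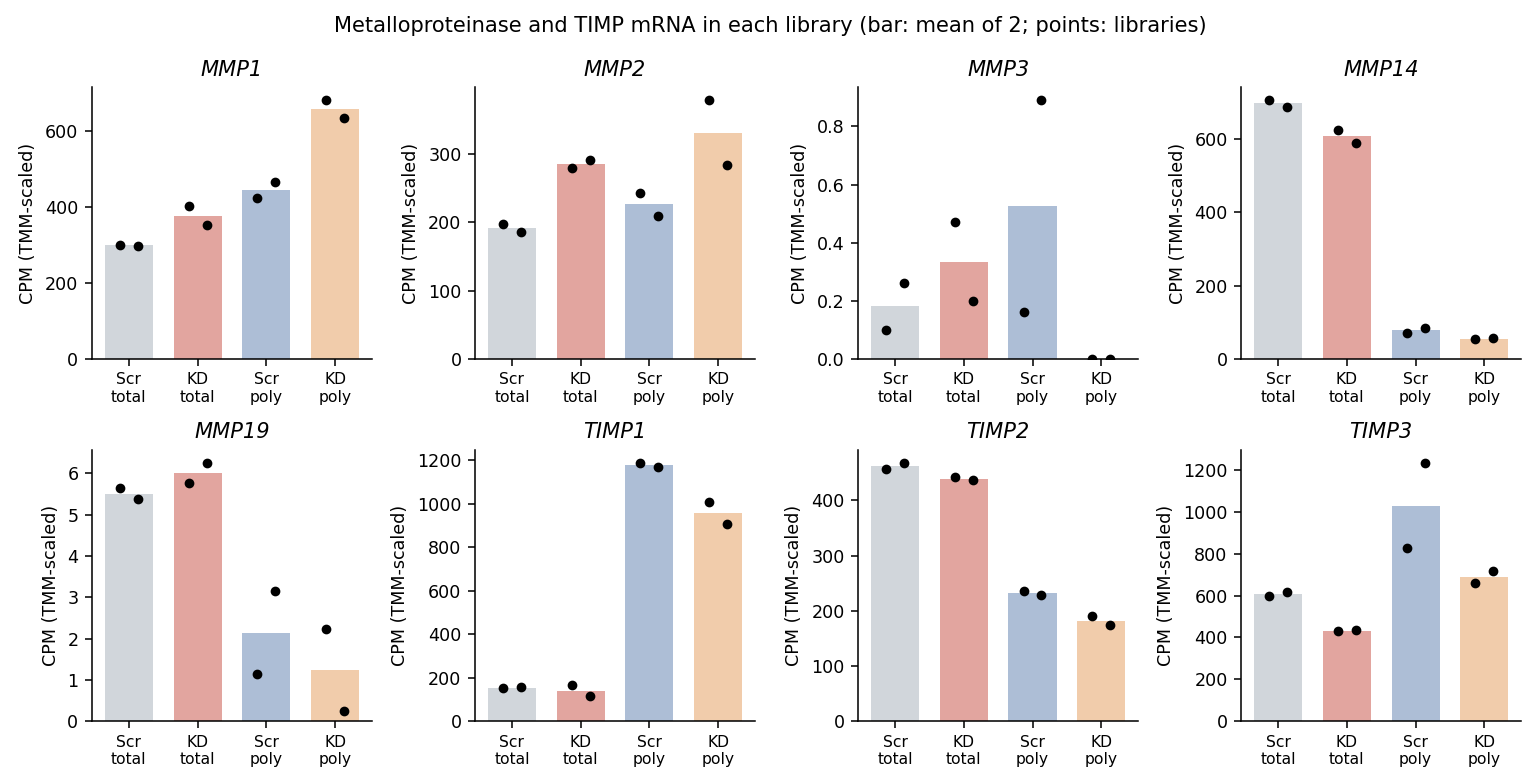
CPM of the TMM-scaled library for each of the 8 genes in scramble (Scr) and EIF4G2 knockdown (KD) total and polysome libraries, with bars at the mean of 2 libraries and points for each library, on a separate axis per gene starting at 0. TIMP1 stands at 1187 and 1168 CPM in scramble polysomes and at 153.2 and 156.5 in total RNA, while MMP14 goes the other way, from 706.9 and 688.8 in total RNA to 70.6 and 83.7 in polysomes.

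The composition of each side, which does not depend on how libraries are scaled to each other, shows the same contrast. The sums run over the 5 MMP and 3 TIMP members and leave out TIMP4 and the other MMP genes. MMP14 made up 47.6% of the summed MMP level per kb in both scramble total libraries and 6.30 and 7.07% in scramble polysomes. MMP1 took its place, with 38.4 and 39.0% in scramble total and 71.8 and 74.7% in scramble polysome libraries. On the inhibitor side TIMP1 held 40.2 and 40.1% of the summed TIMP level in scramble total libraries and 84.5 and 79.8% in scramble polysomes. The size of these shares depends on the transcript lengths used, and TIMP1 has the shortest transcript. On plain CPM TIMP1 (153.2 and 156.5) stood below TIMP3 (600.0 and 616.1) in scramble total libraries. In scramble polysomes TIMP1 stood at 1187 and 1168 CPM and TIMP3 at 825.7 and 1234 CPM. In knockdown total libraries the MMP14 share was 37.4 and 37.8%, below both scramble libraries, and in knockdown polysomes it was 3.09 and 3.60%, again below both.

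The ratio of summed MMP to summed TIMP level was higher in every knockdown library than in either scramble library of the same fraction. Per kb it was 0.930 and 0.887 in scramble total and 1.12 and 1.22 in knockdown total libraries. In polysomes it was 0.191 and 0.193 in scramble and 0.349 and 0.339 in knockdown libraries. On plain CPM the ratios were 1.00 and 0.949 against 1.27 and 1.26 in total RNA, and 0.329 and 0.290 against 0.601 and 0.543 in polysomes. These ratios are a description of 2 libraries per group, with no test. In bulk RNA, fewer cells that make an mRNA and less of it per cell cannot be told apart.

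**Figure D2:**
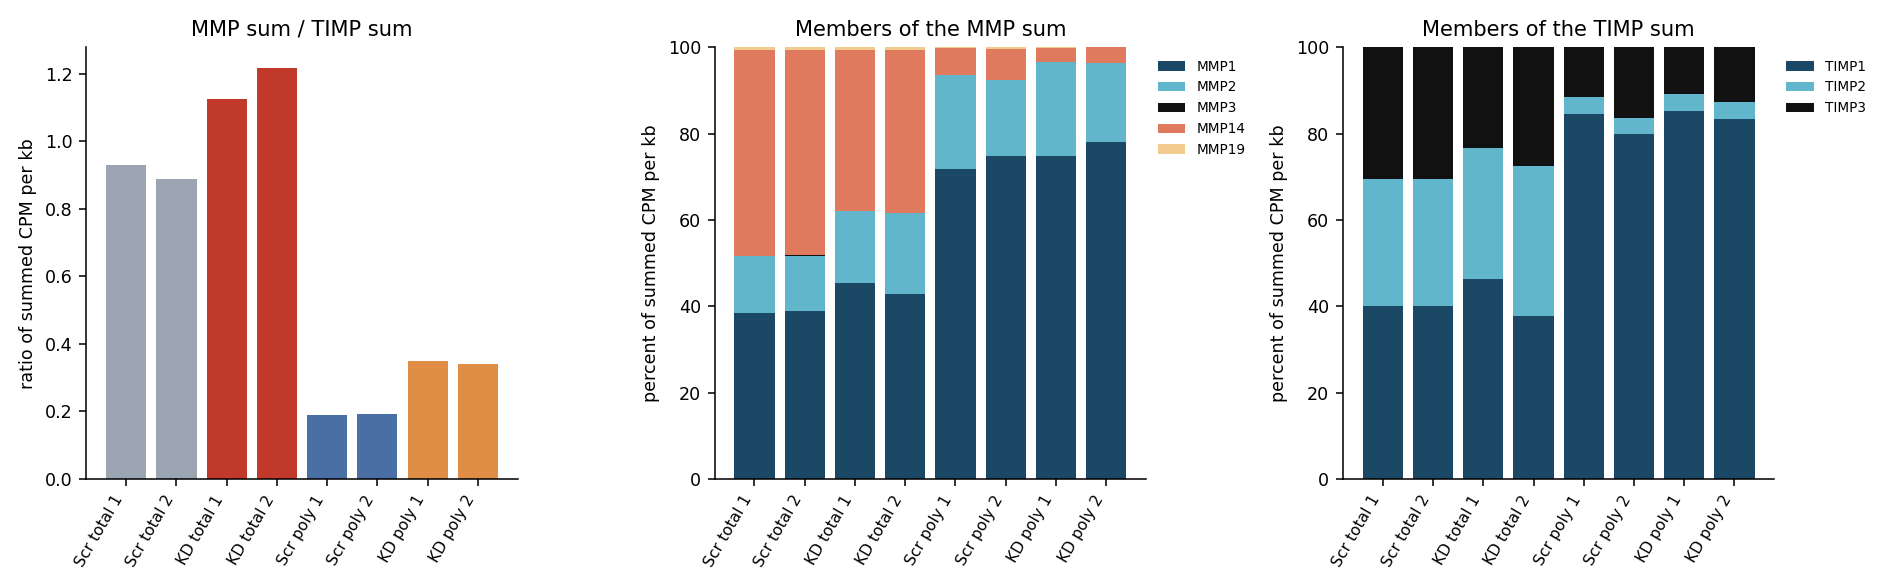
Left, ratio of the summed MMP to the summed TIMP level per kb in each library, with scramble (Scr) and knockdown (KD) total and polysome (poly) libraries coloured by group; middle and right, the percent of each sum held by each gene. The ratio is above 1 in the knockdown total libraries and between 0.339 and 0.349 in knockdown polysomes against 0.191 and 0.193 in scramble polysomes, and the MMP14 segment shrinks in polysomes as the TIMP1 segment grows.

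The first comparison asked which of these mRNAs stood high or low on polysomes relative to total RNA in scramble cells. TIMP1 was 7.60-fold higher and MMP14 9.05-fold lower in polysomal RNA, the extremes of the group. MMP1 (1.49-fold) and TIMP3 (1.69-fold) were higher and TIMP2 was 1.99-fold lower. In all, 5 of 8 members passed edgeR's quasi-likelihood test at an adjusted p of 0.05, 3 higher and 2 lower, where 63.4% of all tested genes passed (29.7% higher, 33.7% lower), so the count is close to the background. DESeq2 called 6 of 8, against 62.8% of genes. Libraries of the 2 fractions did not overlap for 7 of 8 members, as for 84.9% of tested genes.

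TIMP1, a secreted inhibitor that also acts as a growth factor, stood at 153.2 and 156.5 CPM in scramble total against 1187 and 1168 CPM in scramble polysome libraries. The log2 fold change was 2.93 ± 0.20 (edgeR adjusted p = 1.16e-06), at the 96.5 percentile of tested genes. MMP14 stood at 706.9 and 688.8 CPM in total and at 70.6 and 83.7 CPM in polysome libraries, with a log2 fold change of −3.18 ± 0.16 (edgeR adjusted p = 4.27e-07) at the 7.71 percentile. TIMP1 was thus above and MMP14 below every library of the other fraction by several times the spread between replicates. TIMP2 went from 457.9 and 468.3 to 236.3 and 227.9 CPM (log2 fold change −0.996 ± 0.142, edgeR adjusted p = 0.000104). The 3 inhibitors therefore did not share a direction, with TIMP2 lower and its relatives TIMP1 and TIMP3 higher on polysomes.

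MMP1 stood at 301.1 and 298.0 CPM in total and 424.3 and 467.0 CPM in polysome libraries (a log2 fold change of 0.57 ± 0.15, edgeR adjusted p = 0.00712). TIMP3, the inhibitor that binds to the matrix, stood at 600.0 and 616.1 CPM in total and at 825.7 and 1234 CPM in polysomes (log2 fold change 0.76 ± 0.20, edgeR adjusted p = 0.00618). Both polysome libraries of each gene lay above both total libraries, although those of TIMP3 were far apart. MMP2 was at 197.7 and 185.2 CPM in total and 243.8 and 208.9 CPM in polysomes, without passing the test (log2 fold change 0.24 ± 0.17, edgeR adjusted p = 0.234), and without scramble polysome replicate 1 the value was 0.0196. MMP19 was at 5.64 and 5.38 CPM in total and 1.14 and 3.15 CPM in polysomes and did not pass with edgeR (adjusted p = 0.0715), while DESeq2 called it (adjusted p = 0.0440), and its log2 fold change of −1.37 ± 0.61 ran from −2.33 to −0.91 without single libraries. MMP3 had 3 and 7 counts in total and 3 and 15 in polysome libraries, too few to place it.

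The direction of the smaller shifts rests on how polysome and total libraries are scaled to each other. With library totals alone the median of all tested genes moved by −0.995 in scramble and by −1.05 in knockdown cells (log2), and MMP1, MMP2 and TIMP3 then turned lower in polysomes. Relative to the median of tested genes (−0.17), the log2 fold changes were 3.09 for TIMP1, 0.93 for TIMP3, 0.74 for MMP1, 0.41 for MMP2, −0.83 for TIMP2 and −3.01 for MMP14. Across the 4 scalings tried these relative values moved by little, for example from 0.91 to 0.93 for TIMP3 and from −3.02 to −3.01 for MMP14. A change of scaling shifts all genes nearly alike, and subtracting the median removes that shift. The small movement was therefore built in and is no test of the directions. The calls for MMP1 and TIMP3 were lost without scramble total replicate 1 (edgeR adjusted p = 0.0886 and 0.0617) or replicate 2 (0.0981 and 0.0516), and for TIMP3 also without scramble polysome replicate 2 (log2 fold change 0.38, 0.0814).

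**Figure D3:**
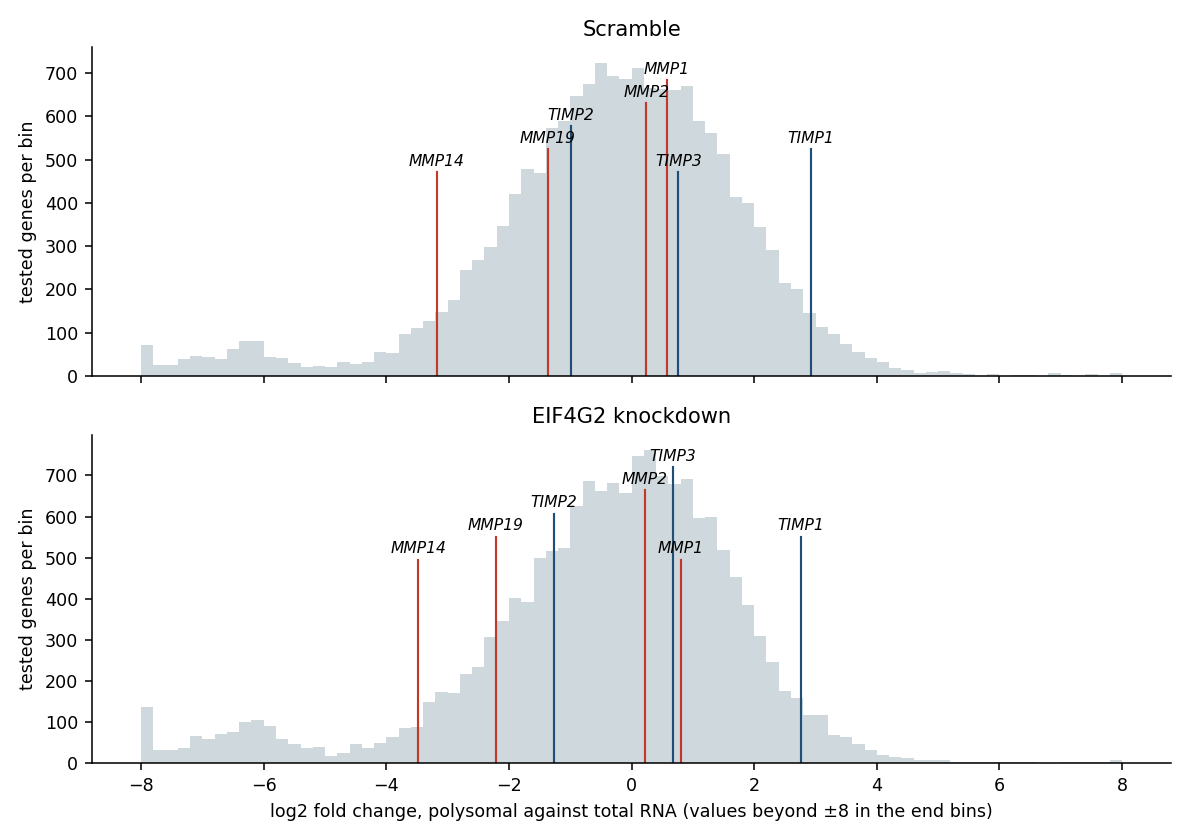
Histograms of the log2 fold change of polysomal against total RNA over the 16228 tested genes in scramble (top) and knockdown (bottom) cells, with lines for MMPs (red) and TIMPs (blue), MMP3 left out for its low counts. TIMP1 at 2.93 and 2.77 and MMP14 at −3.18 and −3.48 lie on opposite flanks, and the other members lie within the bulk of genes.

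**Figure D4:**
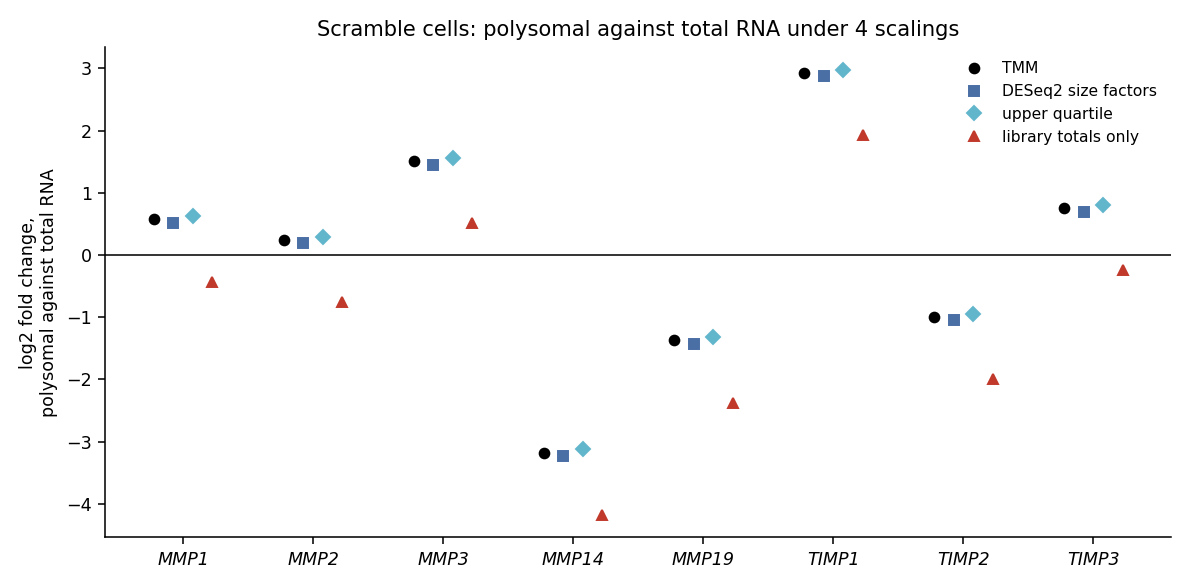
Log2 fold change of polysomal against total RNA in scramble cells for each member under TMM, DESeq2 size factors, upper-quartile scaling and library totals alone. With totals alone all points drop, the median of all genes by −0.995, which takes MMP1, MMP2 and TIMP3 below 0, while TIMP1 stays above and MMP14, MMP19 and TIMP2 stay below 0.

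Transcript length moved with the polysomal shift across all genes. Spearman's rho between transcript length and the log2 fold change was −0.604 in scramble and −0.556 in knockdown cells over 12682 genes, which share the same libraries. With the length of the coding region rho was −0.608 in scramble and −0.583 in knockdown cells. TIMP1 has a short transcript and a coding region of 624 bases, and was higher on polysomes. TIMP3 has the longest transcript of the group but a coding region of 636 bases (14.2 percentile of tested genes), and was also higher. TIMP2 has a coding region of similar length, 663 bases (15.5 percentile), but was lower. Its log2 fold change was −0.996 in scramble and −1.27 in knockdown cells. MMP2 and MMP14 have transcripts of 3741 and 3732 bases and coding regions of 1983 and 1749 bases. Their log2 fold changes were 0.24 and −3.18. The part of length in these values was not tested.

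In knockdown cells TIMP1, MMP1 and TIMP3 again stood high and MMP14 and TIMP2 low on polysomes. This comparison contrasts other libraries than the scramble one. Both come from the same fit over all 8 libraries, with a shared estimate of spread per gene, so they are not independent. Here 7 of 8 members passed edgeR's test, 3 higher and 4 lower, or 6 without MMP3, which had 0 counts in these polysomes, against 63% of tested genes (28.9% higher, 34.1% lower), and the fractions did not overlap for 7 members, as for 81.4% of genes. TIMP1 was 6.80-fold higher (165.4 and 116.0 CPM in total, 1009 and 905.1 CPM in polysomes; log2 fold change 2.77 ± 0.20, edgeR adjusted p = 1.40e-06). MMP14 was 11.2-fold lower (626.6 and 589.6 CPM in total, 53.4 and 55.4 CPM in polysomes; log2 fold change −3.48 ± 0.17, edgeR adjusted p = 2.91e-07). TIMP2 was 2.41-fold lower, MMP1 1.74-fold higher and TIMP3 1.59-fold higher by the same test (edgeR adjusted p = 2.05e-05, 0.000915 and 0.0127), where MMP1 and TIMP3 turned lower with library totals alone (log2 fold change −0.25 and −0.39). MMP2 did not pass (log2 fold change 0.22 ± 0.17, edgeR adjusted p = 0.286).

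MMP19 and MMP3 were also called lower in polysomes of knockdown cells, on few counts. MMP19, a secreted MMP that cuts basement membrane proteins, stood at 5.78 and 6.26 CPM in total and at 2.23 and 0.255 CPM in polysomes (log2 fold change −2.21 ± 0.66, edgeR adjusted p = 0.0130), the last value being 3 counts. Without single knockdown polysome libraries this MMP19 value ran from −4.63 to −1.56. MMP3 had 15 and 6 counts in total and 0 and 0 counts in polysome libraries. The test called MMP3 lower (edgeR adjusted p = 0.0467). Its summed total level was 2.99 times a floor of 3 counts over the polysome group, a value that leaves out the error of the total counts. The MMP3 call was lost under upper-quartile scaling (edgeR adjusted p = 0.0509) and with the replicate number as a block (0.0566), and without each of 6 libraries (0.0722 to 0.152), while the MMP19 call was lost without knockdown total replicate 1 (0.0558) or 2 (0.0714) and the TIMP3 call without the same libraries (0.0627 and 0.0658) or knockdown polysome replicate 2 (0.102).

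After EIF4G2 knockdown MMP1, MMP2 and the scarce MMP19 stood higher and MMP14, TIMP2 and TIMP3 lower in both knockdown total libraries than in both scramble ones, while 0 of 8 members passed edgeR's test. Of all 16228 genes 0 passed, and 0.136% passed with DESeq2. With an unadjusted p under 0.05 edgeR had 2 of 8 members, MMP2 and TIMP3, against 3.68% of tested genes, and DESeq2 called 0 members. MMP2 had the clearest difference, at 197.7 and 185.2 CPM in scramble against 279.5 and 292.0 CPM in knockdown libraries. Both knockdown libraries lay above both scramble libraries, with a log2 fold change of 0.58 ± 0.17 (unadjusted p = 0.00605, edgeR adjusted p = 1). TIMP3 stood at 600.0 and 616.1 CPM in scramble against 431.4 and 433.4 CPM in knockdown libraries, with no overlap (log2 fold change −0.49 ± 0.20, unadjusted p = 0.0303, edgeR adjusted p = 1).

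MMP1 stood at 301.1 and 298.0 CPM in scramble against 402.1 and 353.5 CPM in knockdown total libraries (a log2 fold change of 0.33 ± 0.15, edgeR adjusted p = 1). MMP14 went from 706.9 and 688.8 to 626.6 and 589.6 CPM (log2 fold change −0.20 ± 0.15, edgeR adjusted p = 1). TIMP2 was at 457.9 and 468.3 CPM in scramble against 441.8 and 436.7 CPM in knockdown libraries (a log2 fold change of −0.08 ± 0.14, edgeR adjusted p = 1), a difference smaller than its standard error. The TIMP1 libraries overlapped, at 153.2 and 156.5 CPM against 165.4 and 116.0 CPM (log2 fold change −0.14 ± 0.19), and its direction turned without knockdown total replicate 2 (log2 fold change 0.09). MMP19 (5.64 and 5.38 against 5.78 and 6.26 CPM) and MMP3 (3 and 7 against 15 and 6 counts) had differences within their errors (log2 fold changes 0.13 ± 0.57 and 0.88 ± 1.11). Groups did not overlap for 6 of 8 members, against 47.9% of all tested genes, and such separation is common with 2 libraries per group. The median log2 fold change was 0.03 over the 8 members and 0.02 over all tested genes. Transcript length moved with this comparison too, with a Spearman's rho of −0.379 to the log2 fold change across 12682 genes, and the part of length in the members' values was not tested.

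In polysomal RNA both knockdown libraries held more MMP1 and MMP2 and less MMP14, TIMP1, TIMP2 and TIMP3 than both scramble libraries. None of the 8 passed edgeR's test, where 0.0123% of tested genes passed, and DESeq2 called 2 of 8, MMP1 higher and MMP14 lower, where it called 1.34% of genes (0.555% higher, 0.789% lower). With edgeR 6 of 8 members had an unadjusted p under 0.05, against 13.3% of tested genes, and 1 of the 6 was MMP3, which had 0 counts in knockdown polysomes and passed the filter through libraries of at most 15 counts. The members' median log2 fold change was −0.43, and that of all tested genes was −0.01. With MMP3 set at a floor of 3 counts over the group it remains the lowest member, so this median could not move. Groups did not overlap for 7 of 8 members, against 34% of tested genes. With 2 libraries per group such separation is common and is no test.

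MMP1 stood at 424.3 and 467.0 CPM in scramble against 682.3 and 634.3 CPM in knockdown polysomes, a gap several times the difference between replicates. Its log2 fold change was 0.56 ± 0.15 (edgeR adjusted p = 0.195) and 0.57 ± 0.14 by DESeq2 (adjusted p = 0.00782), with adjusted p-values up to 0.703 over the alternatives run. MMP14 stood at 70.6 and 83.7 CPM in scramble against 53.4 and 55.4 CPM in knockdown polysomes (log2 fold change −0.50 ± 0.15, edgeR adjusted p = 0.234; DESeq2 adjusted p = 0.0456), where adjusted p-values over the alternatives reached 0.737. Each was thus 1.48-fold higher and 1.42-fold lower, in that order, with both knockdown libraries on one side of both scramble libraries. MMP2 was at 243.8 and 208.9 CPM in scramble against 379.3 and 284.4 CPM in knockdown polysomes (log2 fold change 0.55 ± 0.17, edgeR adjusted p = 0.236; DESeq2 adjusted p = 0.103), and this was 0.29 without knockdown polysome replicate 1.

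All 3 inhibitors were lower in both knockdown polysome libraries than in both scramble ones, without passing either test. TIMP3 stood at 825.7 and 1234 CPM in scramble against 658.2 and 715.7 CPM in knockdown polysomes (log2 fold change −0.58 ± 0.20, edgeR adjusted p = 0.266; DESeq2 adjusted p = 0.0854). Without scramble polysome replicate 2 the TIMP3 value was −0.33, and without a filter on low counts TIMP3 was called (log2 fold change −0.63, edgeR adjusted p = 0.0307), while adjusted p-values over the alternatives reached 0.742. TIMP2 went from 236.3 and 227.9 to 191.1 and 173.7 CPM (log2 fold change −0.35 ± 0.14, edgeR adjusted p = 0.332). TIMP1 went from 1187 and 1168 to 1009 and 905.1 CPM (log2 fold change −0.30 ± 0.19, edgeR adjusted p = 0.520).

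The scarce members gave little information in polysomes. MMP19 was at 1.14 and 3.15 CPM in scramble against 2.23 and 0.255 CPM in knockdown libraries, which overlapped (log2 fold change −0.72 ± 0.69, edgeR adjusted p = 0.705), and its direction turned without scramble polysome replicate 2 (0.12) or knockdown polysome replicate 2 (0.01). MMP3 had 3 and 15 counts in scramble against 0 and 0 counts in knockdown polysomes (edgeR adjusted p = 0.276), with most of the scramble counts in replicate 2. The summed scramble level was 4.52 times a floor of 3 counts over the knockdown group. That value leaves out the error of the scramble counts, and scramble replicate 1 (0.162 CPM) lay near the floor (0.113 CPM).

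Whether the polysome-to-total ratio itself differed between the hairpins was tested as the interaction of hairpin and fraction, and 0 of 8 members passed, as did 0 of 16228 genes with edgeR (6.27% at an unadjusted p under 0.05) and 0.0246% with DESeq2. For MMP1 the log2 difference of the ratio was 0.23 ± 0.22 (edgeR adjusted p = 0.885), for MMP14 −0.30 ± 0.21 (0.821) and for TIMP2 −0.27 ± 0.20 (0.833). For MMP2 (−0.03 ± 0.24), TIMP3 (−0.09 ± 0.28) and TIMP1 (−0.16 ± 0.27) the difference was within its error. The sole member with an unadjusted p under 0.05 was MMP3 (unadjusted p = 0.0169), which rests on 0 counts in knockdown polysomes, and DESeq2 called 0 members. The signs for MMP2, MMP19, TIMP1 and TIMP3 turned without single libraries.

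**Figure D5:**
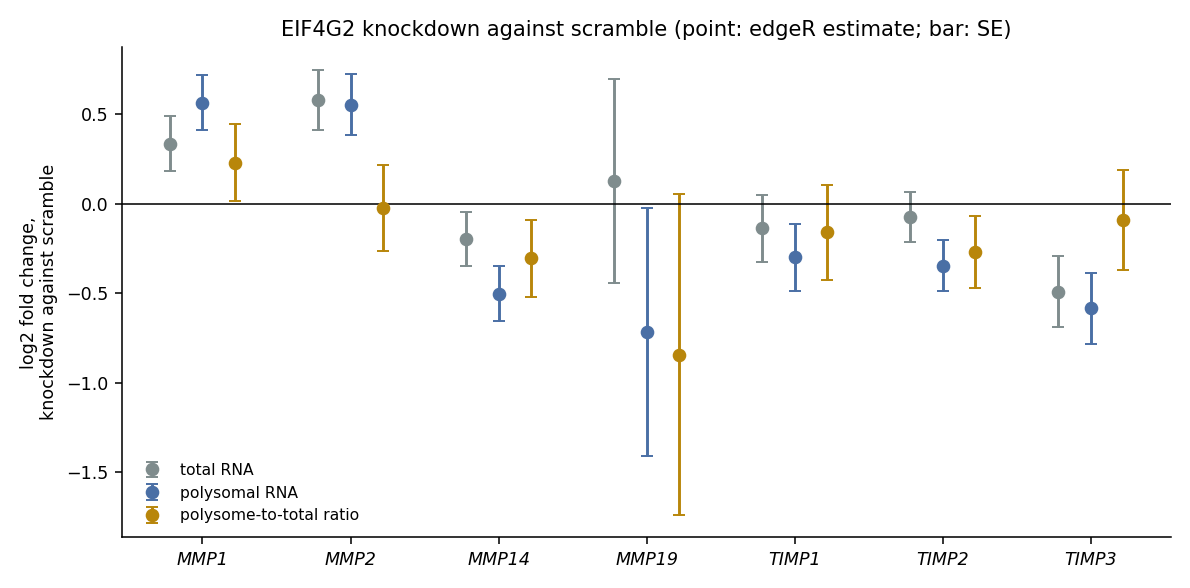
Log2 fold change (edgeR) between EIF4G2 knockdown and scramble libraries for 7 members, shown for total RNA, polysomal RNA and the polysome-to-total ratio, with bars of 1 standard error, MMP3 left out because it had 0 counts in a group. MMP1 and MMP2 lie above 0 and MMP14 and TIMP3 below 0 in both fractions, while no ratio lies far beyond its error.

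Other genes of matrix proteolysis were counted from lists set by function, with earlier results of these data known. Of 18 other MMP genes 7 were tested, and MMP7, MMP8, MMP9, MMP12 and MMP28 had at most 8 counts in any library and MMP11, MMP20, MMP26 and MMP27 had 0, so the gelatinase MMP9 and the neutrophil collagenase MMP8 were near 0 here. None of the 7 was called by edgeR after knockdown in either fraction, with 1 at an unadjusted p under 0.05 in polysomes and 0 in total RNA (13.3% and 3.68% of all tested genes). That gene was MMP15, a membrane-anchored relative of MMP14, at 5.20 and 7.54 CPM in scramble against 2.23 and 2.38 CPM in knockdown polysomes (log2 fold change −1.47 ± 0.30, edgeR adjusted p = 0.161, DESeq2 adjusted p = 0.00961). It was the 1 DESeq2 call of the 7 in polysomes, where 1.34% of all tested genes were called. In total RNA DESeq2 called 0 of the 7, against 0.136% of all tested genes. On polysomes relative to total RNA, 2 of the 7 were higher and 3 lower in scramble cells, where 29.7% of all tested genes were higher and 33.7% lower, the background for each list below as well. MMP10, a stromelysin like MMP3, was higher, with 0.334 and 0.336 CPM in total and 4.28 and 2.97 CPM in polysomes (log2 fold change 3.42 ± 0.47, edgeR adjusted p = 8.21e-05).

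Among 10 other regulators of metalloproteinases, 9 were tested, 0 were called after knockdown by edgeR in either fraction, and 4 were higher and 1 lower on polysomes in scramble cells. In total RNA 1 of the 9 had an unadjusted p under 0.05 with edgeR, against 3.68% of all tested genes, and DESeq2 called 0, against 0.136%. In polysomes these counts were 3, against 13.3% of all tested genes, and 1, against 1.34%. The DESeq2 call was LRP1, the receptor that clears MMPs and TIMPs from outside the cell, at 31.0 and 17.2 CPM in scramble against 12.1 and 12.2 CPM in knockdown polysomes (log2 fold change −0.99 ± 0.27, edgeR adjusted p = 0.195; DESeq2 adjusted p = 0.0456). BSG, the cell-surface inducer of MMPs, was among those higher on polysomes in scramble cells (log2 fold change 1.78 ± 0.23, edgeR adjusted p = 4.49e-05). Of 21 ADAM and ADAMTS proteases, 18 were tested, and 1 was higher and 12 lower on polysomes in scramble cells, with a median log2 fold change of −1.497 against −0.17 over all tested genes. Of 14 cathepsins and other matrix-degrading proteases, 11 were tested, with 6 higher and 2 lower. After knockdown edgeR called 0 genes of these last groups in either fraction, and DESeq2 called 0. With an unadjusted edgeR p under 0.05 there were 0 in total RNA, against 3.68% of all tested genes. In polysomes there were 4 of the 18 ADAM or ADAMTS genes and 0 of the 11 cathepsins and other proteases, against 13.3%.

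AP-1 and ETS transcription factors, which act on the promoters of several MMP genes, gave 0 edgeR calls of 15 after knockdown in either fraction. In total RNA 2 of 15 and in polysomes 7 of 15 had an unadjusted p under 0.05, against 3.68% and 13.3% of all tested genes. The list had no common direction, with 7 of 15 log2 fold changes above 0 in total RNA and 8 of 15 in polysomes. Their medians were −0.013 and 0.004, against 0.019 and −0.014 over all tested genes. The 2 factors named next have the smallest p in each fraction, and both were higher. FOSL1, an AP-1 subunit, stood at 61.97 and 67.05 CPM in scramble against 99.2 and 90.3 CPM in knockdown total libraries (a log2 fold change of 0.56 ± 0.15, edgeR adjusted p = 1). ETV4, an ETS factor, stood at 13.4 and 12.6 CPM in scramble against 41.0 and 25.3 CPM in knockdown polysomes (log2 fold change 1.35 ± 0.24, edgeR adjusted p = 0.157), and DESeq2 called it (adjusted p = 0.000754). It was the 1 DESeq2 call of 15 in polysomes, where 1.34% of all tested genes were called. In total RNA DESeq2 called 0 of 15, against 0.136% of all tested genes.

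The genes whose profile over the 8 libraries was most like that of each member were found by the root mean square difference of log2 CPM, each gene centred on its own mean. TIMP2 was closest to BTN2A1 (0.0544) and CTNNA1 (0.0584), TIMP1 to HES4 (0.110) and TM7SF2 (0.129), and MMP14 to CPA4 (0.0905) and PDCD11 (0.110). MMP1 was closest to EPN1 (0.0858) and PPME1 (0.101), and MMP2 to IRAK1 (0.108) and HIC1 (0.115). For the scarce MMP19 (CH507-9B2.5, 0.385, and GPRIN1, 0.467) and MMP3 (GPR162, 0.763, and TENT5B, 0.785) no gene came near. All these values come from the same 8 libraries of 1 experiment.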

How the data were processed

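Total and polysomal RNA was sequenced in 8 libraries of IHCF cells. The authors deposited whole-number counts per gene symbol, without normalization. The submitters' processing notes name GRCh38 and, without roles, Trimmomatic 0.36, bcl2fastq 2.19.0, featureCounts, HISAT2 2.1.0, Subread 2.0.1, R 4.1.2 and DESeq2; options, annotation and strand setting are not given in the sources used here. Groups came from the sample titles, and 0 columns and 0 rows were left out. Genes were filtered with filterByExpr, scaled by TMM and fitted in edgeR 4.0.16 (R 4.3.3) by a robust quasi-likelihood model with a mean per group over all 8 libraries (4 residual degrees of freedom), with Benjamini-Hochberg adjustment over 16228 genes and a threshold of 0.05. Standard errors were taken as the absolute log2 fold change over the square root of F. A polysomal level is relative to other genes, not an amount per cell. DESeq2 1.42.0 (without independent filtering) and limma 3.58.1 were alternatives, beside other scalings, filters, a replicate block, separate fits and leaving out each library. The code was run on simulated counts for the polysomal knockdown comparison only. Those counts were drawn with the fit's own dispersions, so they do not test how well the model describes these data. Replicate libraries differed beyond sampling noise (chi-square per degree of freedom 2.69 to 134.5). Counting intervals and floors cover counting error only, and a floor covers that of the group at 0 alone. Log2 CPM for likeness used a prior count of 2, over genes with a mean of at least 3.

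The members, gene lists and rule for named genes were chosen with earlier results of these data known. The rule named the 8 members, EIF4G2, up to 3 called genes per list (or the 1 with the smallest p), and the 2 most similar genes per member, of which those a result turns on are printed. The most similar genes of TIMP3 are not reported here. Annotation and transcript sequences are from GENCODE release 29 (GRCh38).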

Additional observations from a re-analysis of the deposited data

How the results depend on the processing

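Depth limits MMP3 and MMP19, and 2 libraries per group limit all members. Counts of called genes for knockdown in total RNA were 0 in the reported fit, 38 without a filter, 22 with DESeq2, 6 with limma-voom and 10 with the 4 total libraries alone. In polysomal RNA they were 2 as reported, 1 with library totals alone, 502 without a filter, 218 with DESeq2 and 0 to 183 without single libraries (183 without knockdown polysome replicate 2). For the ratio they were 0 as reported, 64 without a filter, 4 with DESeq2 and 0 to 2 without single libraries. The cause of these differences was not tested. Called members in polysomal RNA after knockdown numbered 0 as reported, 1 without a filter (TIMP3) and 2 with DESeq2. Called members between fractions numbered 5 in scramble (3 to 6 without single libraries, 3 without either scramble total replicate) and 7 in knockdown cells (4 to 7, 4 without either knockdown total replicate).

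With library totals alone, polysomal against total log2 fold changes turned to −0.43 (MMP1), −0.75 (MMP2) and −0.25 (TIMP3) in scramble and to −0.25, −0.84 and −0.39 in knockdown cells, because that scaling shifts all genes; calls then split 2134 higher and 8852 lower in scramble (4827 and 5466 as reported) and 1777 and 9218 in knockdown cells (4690 and 5539 as reported). Without single libraries the fraction values ran from −0.19 to 2.29 for MMP3 in scramble and from −0.10 to 0.28 for MMP2 in knockdown cells. After knockdown they ran from −0.42 to 0.094 for TIMP1 in total RNA and from −3.06 to 0.12 for MMP19 in polysomal RNA. For the ratio they ran from −0.27 to 0.12 (MMP2, also 0.0109 with upper-quartile scaling), −3.17 to 0.0116 (MMP19), −0.39 to 0.12 (TIMP1) and −0.36 to 0.18 (TIMP3). TIMP1, TIMP2 and MMP14 kept direction and call between fractions under every alternative run.

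The labels do not say that replicate numbers pair libraries, and same-numbered deviations correlated at −0.0921 to 0.0264 between groups. With the replicate number as a block, the knockdown comparisons called 0 genes (total), 3 (polysomal) and 0 (ratio), and 6 members were called between fractions in knockdown cells.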
